A study of Mus musculus with 19 samples.

Results

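Chemokine ligand genes encode small secreted or membrane-anchored proteins that attract leukocytes through G-protein-coupled receptors. They were taken here as the protein-coding genes whose symbols begin with Ccl or Cxcl and a number, or with Cx3cl1 or Xcl1, in the GENCODE annotation of the NCBIM37 (mm9) mouse assembly. The rule found 37 genes, from 38 gene models since Ccl25 has 2, of 22238 protein-coding genes in all. A peak counted for a gene if it touched the gene body extended by 10 kb on either side, called the window below. A promoter peak touched the stretch between 2000 bp before and 1000 bp after an annotated start of transcription.

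Chemokines are grouped by the spacing of their conserved cysteines into CC, CXC, C and CX3C ligands, and most genes lie in clusters that arose by duplication. In the liver, Ccl2 recruits monocytes through CCR2, Cxcl1 and its relatives recruit neutrophils through CXCR2, and Cxcl9 and Cxcl10 recruit T cells through CXCR3. YAP, a coactivator kept in check by Hippo signalling, has no DNA-binding domain and reaches chromatin mainly through the TEAD transcription factors.

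ChIP-seq for YAP or TEAD was performed on livers of C57BL/6 mice in 19 samples that form 6 groups. All groups carried the doxycycline-responsive transactivator ROSA26-rtTA-IRES-EGFP and received doxycycline food. WT livers (ROSA26-rtTA-IRES-EGFP; WT) had no YAP transgene and were fed for 7 days, and induced livers (ROSA26-rtTA-IRES-EGFP; tetYAP) were fed for 3 days or 7 days (3 d and 7 d below). According to the study's methods, the transactivator is released by albumin-driven Cre, which directs induction of the activated YAP allele to hepatocytes, whereas chromatin came from whole liver. The ages of the mice are not given in the sources used here. The TEAD antibody was raised against TEAD4 and is described in the methods as also recognizing TEAD1 and TEAD3. YAP samples were fixed with a protein-protein crosslinker before formaldehyde and TEAD samples with formaldehyde alone, so levels were not compared between the antibodies.

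Each group had 3 replicates, or 4 for TEAD at 7 d, which the authors merged before calling peaks. Every result below therefore rests on 1 peak list per group and has no replicate check. The merged libraries held from 34260362 to 55032002 tags. For WT, 3 d and 7 d, YAP was called at 156, 110 and 1478 positions and TEAD at 5695, 36446 and 38984. The fragment length set in the caller was 400 bp for TEAD in WT livers against 207 bp and 206 bp at 3 d and 7 d, and its part in the differences between these lists was not tested. More cells with an occupied site and more occupancy per cell cannot be told apart in whole liver. Of 8 hepatocyte marker genes, 1 had a TEAD promoter peak in WT livers and 8 had one at 3 d and at 7 d, against 8.76%, 39.0% and 37.7% of all genes. At 7 d, TEAD was called at the promoter of 0 of 8 Kupffer cell and macrophage, 0 of 6 T and B cell, 1 of 5 endothelial, 0 of 3 stellate and 1 of 4 cholangiocyte markers. With the gene body and 10 kb on either side, the counts at 7 d were 2, 3, 3, 0 and 1, against 59.7% of all genes.

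YAP was called at 2 chemokine genes, both at 7 d and both away from the promoter. These were Cxcl10, an interferon-inducible T cell attractant, and Cx3cl1 (fractalkine), a membrane-anchored ligand for monocytes and natural killer cells. Both sites also held a TEAD peak at 7 d. The 151 bp around the TEAD summit of each site (mm9, plus strand) are shown because they carry the only YAP peaks in the windows. Capitals mark the TEAD motif GGAATG, the AP-1 motif TGANTCA and an NF-kB-like motif (GGG, any 2 bases, TTTCC) on either strand, and matches of different motifs could overlap.
Cxcl10, chr5:92781901-92782051: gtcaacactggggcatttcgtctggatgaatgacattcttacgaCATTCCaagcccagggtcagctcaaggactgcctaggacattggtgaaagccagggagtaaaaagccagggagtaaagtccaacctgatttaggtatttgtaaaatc
Cx3cl1, chr8:97313272-97313422: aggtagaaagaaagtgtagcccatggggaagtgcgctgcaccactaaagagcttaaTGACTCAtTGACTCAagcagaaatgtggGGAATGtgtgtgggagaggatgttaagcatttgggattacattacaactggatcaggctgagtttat
Each window held 1 TEAD motif, and the Cx3cl1 window also held 2 adjacent AP-1 motifs.

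The Cxcl10 peak for YAP at 7 d lay at chr5:92781823-92782127 with its summit at −4030 bp from the start, in an intron of Art3, which overlaps this part of the chromosome. Fold enrichment, the ratio of fragments at the summit to the local background given by the peak caller, was 6.55 there, with a pileup of 30 fragments and a −log10 p-value of 15.35. By −log10 p-value it was number 515 of 1478 YAP peaks. Neither the WT list nor the 3 d list had a YAP peak there. TEAD was present at the same site in each of its 3 lists, with a fold enrichment of 5.18, 22.0 and 41.94 in the WT, 3 d and 7 d lists. It was number 2712 of 5695, 881 of 36446 and 492 of 38984 in these lists, which differ in length and were called separately. A TEAD motif lay 3 bp from the YAP summit. TEAD was thus listed at this site without the transgene, and YAP only at 7 d.

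The Cx3cl1 peak for YAP at 7 d lay at chr8:97313211-97313547, in intergenic sequence 17298 bp downstream of the start. Its fold enrichment was 6.23, its pileup 31 fragments and its −log10 p-value 15.21, which placed it at rank 554 of 1478. TEAD was called there at 7 d only, with a fold enrichment of 24.18 and rank 2363 of 38984. The nearest TEAD motif lay 12 bp from the TEAD summit and 64 bp from the YAP summit. In contrast to Cxcl10, no TEAD peak was listed at this site in WT livers or at 3 d.

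The YAP-bound genes were set against all protein-coding genes. No chemokine gene had a YAP peak in WT livers or at 3 d, when 0.117% and 0.162% of all protein-coding genes had one. At 7 d the share was 2 of 37 (5.41%, 95% Wilson interval 1.50% to 17.7%) against 4.82% of all genes. No promoter of the 37 genes carried YAP in any list (interval 0% to 9.41%), where the shares of all genes were 0.036%, 0.0719% and 1.04%. These intervals cover counting error over genes only, and neighbouring genes share parts of their windows.

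TEAD was called at 5, 17 and 18 chemokine genes in the WT, 3 d and 7 d lists. The 5 genes of WT livers were Ccl2, Ccl9, Ccl25, Cxcl10 and Cxcl12, and each of them had a TEAD peak at both later times. The shares were 13.5% in WT livers (interval 5.91% to 28.0%), then 45.9% (31.0% to 61.6%), and finally 48.6% (33.4% to 64.1%). All protein-coding genes gave 20.2%, 58.9% and 59.7%, so each chemokine share was lower in value, and each interval held the general share. At 3 d, 12 genes had a TEAD peak without having one in WT livers (38.8% of all genes), and at 7 d 13 genes had (39.6% of all genes). Between the induced times, Ccl12 was called at 3 d only (3.95% of all genes), and Ccl7 and Cxcl13 at 7 d only (4.78% of all genes).

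**Figure D1:**
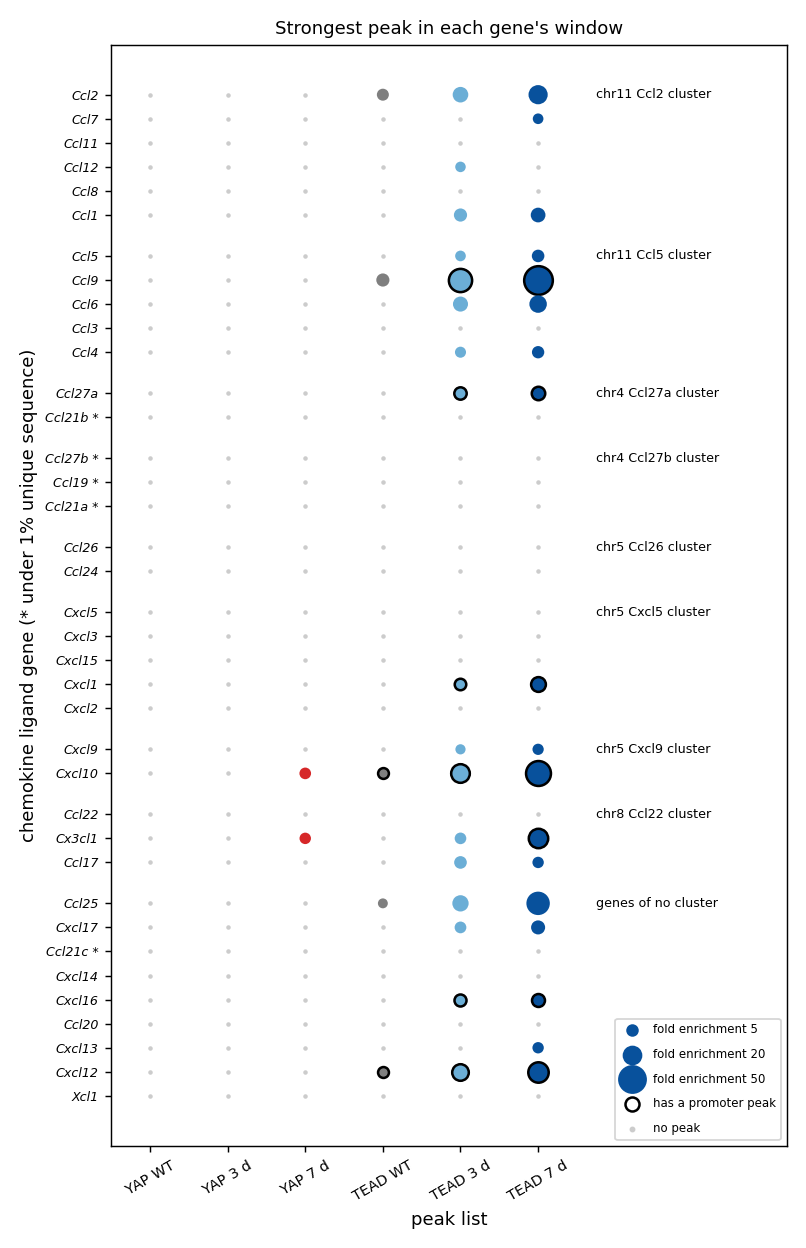
Strongest peak in the window of each of the 37 chemokine ligand genes (rows, ordered along each cluster) in each of the 6 peak lists (columns). Point area grows with the fold enrichment, black rings mark genes with a promoter peak in that list, small grey points mark no peak, and asterisks mark 5 genes whose windows hold under 1% unique sequence. The only YAP points are Cxcl10 and Cx3cl1 at 7 d, and the largest TEAD points are Ccl9, Cxcl10 and Ccl25 at 7 d.

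The windows of chemokine genes were shorter than most, with a median of 23122 bp against 35512.5 bp over all protein-coding genes. When 10 kb on either side of a start was used for every gene instead, TEAD was called at 4, 16 and 18 of the 37 genes, against 15.1%, 51.9% and 52.3% of all genes. YAP was then called at none in WT livers, none at 3 d and Cxcl10 alone at 7 d, against 0.0675%, 0.0944% and 2.88%. The Ccl1 model is the exception in length, with a body of 129034 bp. Its window nevertheless held a single TEAD site, 4916 bp downstream of the nearest annotated start. That site was intergenic, in the flank beyond the gene body, and the body itself held no TEAD peak.

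The lists also held unequal numbers of peaks. With only the strongest 5695 peaks of every TEAD list, 5, 6 and 7 genes were called in the same order, against 20.2%, 19.8% and 18.2% of all genes. The 5 genes of WT livers were among those of each later list, joined at 3 d by Ccl6 and at 7 d by Ccl6 and Cx3cl1. At equal list length the counts thus differed by at most 2 genes. No chemokine gene was called from the strongest 110 YAP peaks at 7 d, against 0.481% of all genes.

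TEAD promoter peaks were found at 2 to 7 chemokine genes per list. Cxcl10 and Cxcl12 had a TEAD promoter peak in WT livers (2 of 37, 5.41%, interval 1.50% to 17.7%, against 8.76% of all genes). At 3 d these were joined by Ccl9, Ccl27a, Cxcl1 and Cxcl16 (6 of 37, 16.2%, 7.65% to 31.1%, against 39.0%). At 7 d Cx3cl1 was added (7 of 37, 18.9%, 9.48% to 34.2%, against 37.7%). At both induced times the general share lay above the interval, which did not hold under some other settings. With peaks of at least 5-fold enrichment the counts were also 6 and 7, and the general shares of 27% and 33.4% fell inside the intervals. With a −log10 p-value of at least 10, or with the outermost start of each gene only, the counts were again 6 and 7. The general share at 7 d then fell inside the interval (32.9% and 34.1%), and that at 3 d lay above it (34.2% and 35.6%). Of the 6 and 7 genes with all peaks kept, 4 at 3 d and 5 at 7 d had no promoter peak in WT livers, against 30.3% and 29.0% of all genes.

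Part of the family lies in duplicated sequence, which bears on these shares. The windows of Ccl19, Ccl21a, Ccl21b, Ccl21c and Ccl27b, ligands mostly made in lymphoid tissue or skin, held between 0% and 0.598% of 51-bp words that occur only once in the assembly, where 51 bp is the tag length. The other 32 windows held between 56.5% (Ccl27a) and 100%. None of the 5 genes had a peak in any list, and almost no tag of 51 bp could be placed uniquely there. Without them, the TEAD promoter share was 18.8% of 32 genes at 3 d (8.89% to 35.3%) and 21.9% at 7 d (11.0% to 38.8%). The interval at 7 d then held the general share of 37.7%, and that at 3 d did not hold 39.0%. These general shares still covered all protein-coding genes, because unique sequence was measured only for the chemokine windows. The part of duplicated sequence in the lower chemokine promoter shares was therefore not tested. The window share at 7 d became 56.2% (39.3% to 71.8%).

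**Figure D2:**
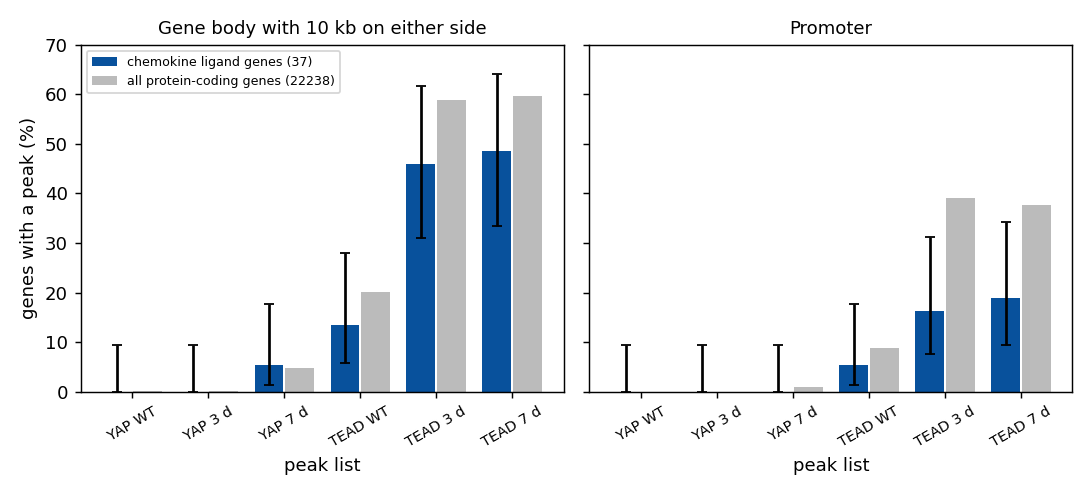
Share of genes with a peak in each list (vertical axis, percent), counted in the window of gene body and 10 kb on either side (left) or in the promoter (right). Blue bars are the 37 chemokine ligand genes with 95% Wilson intervals, and grey bars are all 22238 protein-coding genes. At the promoter, the TEAD bars of chemokine genes reach 16.2% at 3 d and 18.9% at 7 d, below the grey bars of 39.0% and 37.7%.

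Sequences of 6 further TEAD sites at 7 d are shown around the summit (151 bp, mm9, plus strand, capitals as above). The first 3 are the promoter peaks with the highest −log10 p-value whose printed window overlaps no annotated exon. The others are the strongest TEAD peaks of Ccl2, which the study names, and of Ccl9 and Ccl25, which were chosen after their values were seen.
Cxcl10 promoter, chr5:92777999-92778149: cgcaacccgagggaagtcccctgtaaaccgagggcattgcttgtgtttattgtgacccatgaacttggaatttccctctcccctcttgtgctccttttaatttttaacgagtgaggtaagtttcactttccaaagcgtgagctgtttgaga
Cxcl1 promoter, chr5:91320080-91320230: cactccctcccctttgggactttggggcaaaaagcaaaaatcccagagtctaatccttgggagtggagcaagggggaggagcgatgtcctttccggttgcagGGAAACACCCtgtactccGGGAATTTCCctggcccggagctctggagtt
Cxcl12 promoter, chr6:117117036-117117186: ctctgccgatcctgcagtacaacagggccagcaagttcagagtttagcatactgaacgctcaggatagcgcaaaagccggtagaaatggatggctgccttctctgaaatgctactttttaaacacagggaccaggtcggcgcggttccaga
Ccl2, chr11:81846588-81846738: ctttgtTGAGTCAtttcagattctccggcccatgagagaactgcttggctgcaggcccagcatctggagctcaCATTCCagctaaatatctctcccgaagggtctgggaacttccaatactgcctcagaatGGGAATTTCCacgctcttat
Ccl9, chr11:83377403-83377553: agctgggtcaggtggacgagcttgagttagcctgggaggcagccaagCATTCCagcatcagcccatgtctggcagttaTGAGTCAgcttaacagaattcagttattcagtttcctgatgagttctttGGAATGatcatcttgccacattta
Ccl25, chr8:4321164-4321314: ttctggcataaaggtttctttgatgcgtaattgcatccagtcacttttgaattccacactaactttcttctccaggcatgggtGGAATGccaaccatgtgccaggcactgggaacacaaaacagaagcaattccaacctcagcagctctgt
The 3 promoter windows held no TEAD motif, and that of Cxcl1 held 2 NF-kB-like motifs. Only the letter patterns defined above were searched, so variants of these motifs were not counted. The Ccl2 window held a TEAD, an AP-1 and an NF-kB-like motif, the Ccl9 window 2 TEAD motifs and an AP-1 motif, and the Ccl25 window a TEAD motif.

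The Ccl2 cluster on chromosome 11 holds Ccl2, Ccl7, Ccl11, Ccl12, Ccl8 and Ccl1. Ccl2, the main monocyte attractant of this group, had a TEAD peak upstream of its start in each list (chr11:81846430-81846921 at 7 d), inside an intron of the gene model Gm17268. Fold enrichment was 7.18, 14.45 and 23.56 in the WT, 3 d and 7 d lists, with pileups of 54, 88 and 100 fragments and −log10 p-values of 28.11, 68.98 and 98.4. It ranked 1048 of 5695, 2597 of 36446 and 2718 of 38984. The value rose from list to list, and the rank stayed within the strongest 7.13% of both induced lists.

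The Ccl2 summit lay 2410 bp upstream of the start at 7 d. The peak ended 87 bp, 194 bp and 152 bp short of the promoter interval in the WT, 3 d and 7 d lists, so Ccl2 counts as a gene without a promoter peak in all 3 lists. A TEAD motif lay 1 bp from the summit at 7 d. A second, weak peak at 7 d (fold enrichment 4.95) lay downstream of Ccl2 and within the window of Ccl7, a further CCR2 ligand, and is the only peak of Ccl7. Ccl12 had a single peak at 3 d (fold enrichment 4.76). Ccl1, a CCR8 ligand, had 1 peak at 3 d (9.36) and 1 at 7 d (12.49). No peak was listed for Ccl8 or for the eotaxin Ccl11.

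The Ccl5 cluster, also on chromosome 11, holds Ccl5, Ccl9, Ccl6, Ccl3 and Ccl4, which attract mainly monocytes, macrophages and T cells. The strongest TEAD site of the whole family lay 11503 bp downstream of the start of Ccl9, a myeloid-attracting CCR1 ligand, in intergenic sequence (chr11:83377111-83377999). Its fold enrichment was 9.31, 36.11 and 56.55 in the WT, 3 d and 7 d lists. It ranked 465 of 5695, 130 of 36446 and 102 of 38984, and was thus within the strongest 0.262% of the 7 d list. No YAP peak was called at this site in any list.

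Ccl9 had 5 peaks at 3 d and 4 at 7 d. Its strongest promoter peak had its summit within 63 bp of the start. Fold enrichment there was 5.42 at 3 d (pileup 33, −log10 p-value 14.35, rank 19383 of 36446) and 6.83 at 7 d (29, 15.37 and 22662 of 38984). This peak was in the weaker part of both lists. A second promoter peak, listed at 7 d only, had its summit at −181 bp from the nearest annotated start and a fold enrichment of 4.6. The site 12736 bp downstream of the start (6.57 at 3 d, 9.66 at 7 d) counted at 3 d only, because its 7 d peak stopped short of the window. Another site, 4775 bp upstream of Ccl9 and also within the window of Ccl6, had 13.21 at 3 d and 18.94 at 7 d. Ccl5, a T cell and monocyte attractant, had 1 peak per induced list (4.99 and 8.21), as did Ccl4 (5.61 and 7.78). Ccl3 had none.

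The Cxcl9 and Cxcl10 pair on chromosome 5 was called at both genes after induction. The Cxcl10 promoter peak (chr5:92777795-92778355 at 7 d, summit 159 bp upstream of the start) had a fold enrichment of 4.45, 10.96 and 16.63 in the WT, 3 d and 7 d lists. Its pileups were 36, 74 and 79 fragments, its −log10 p-values 12.96, 50.08 and 66.75, and its ranks 3850 of 5695, 4167 of 36446 and 4776 of 38984. At equal list length it was the only chemokine promoter peak at 3 d and at 7 d (1 of 37, 2.70%, interval 0.479% to 13.8%, against 7.75% and 5.98% of all genes). It had a lower value than the YAP-bound site described above in each list. Cxcl9, which shares the receptor CXCR3, had only weak peaks within its gene (at most 4.27 at 3 d and 5.93 at 7 d) and none in WT livers.

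The neutrophil-attracting cluster on chromosome 5 holds Cxcl5, Cxcl3, Cxcl15, Cxcl1 and Cxcl2. Of these CXCR2 ligands only Cxcl1 had peaks, with 3 in each induced list and none in WT livers. The Cxcl1 promoter peak had a fold enrichment of 5.58 at 3 d (pileup 34, −log10 p-value 15.11, rank 18266 of 36446) and 8.48 at 7 d (36, 21.7 and 16469 of 38984), with its summit 112 bp upstream of the start at 7 d. The strongest Cxcl1 peak lay 6169 bp upstream, with 6.36 at 3 d and 12.57 at 7 d. Cxcl2 was close to being counted: the Cxcl1 promoter peak ended 2481 bp from its window at 3 d and 2495 bp at 7 d.

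The Ccl22 cluster on chromosome 8 holds Ccl22, Cx3cl1 and Ccl17. Beside the YAP-bound site, Cx3cl1 had a TEAD peak 13606 bp downstream of the start with 6.55 at 3 d and 16.26 at 7 d. Its promoter peak was listed at 7 d only, 7 bp from the start, with a fold enrichment of 6.13, a pileup of 26, a −log10 p-value of 12.86 and rank 26566 of 38984. Ccl17, a CCR4 ligand, had 2 peaks in each induced list, and its strongest value was 8.37 at 3 d and 6.13 at 7 d. It was the only gene with peaks in both induced lists whose strongest value was lower at 7 d. Ccl22, the other CCR4 ligand, had no peak.

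On chromosome 4, Ccl27a, a CCR10 ligand of skin, had a promoter peak over an exon at its start with a fold enrichment of 5.25 at 3 d (pileup 32, −log10 p-value 13.6, rank 20644 of 36446) and 9.9 at 7 d (42, 27.59 and 13027 of 38984). A second peak in its window (7.88 and 7.54) lay at the start of the neighbouring gene Il11ra1. The eotaxins Ccl24 and Ccl26 on chromosome 5 had no peak, although the nearest TEAD peak to the Ccl26 window was 4769 bp away at 3 d and 4748 bp at 7 d.

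Among genes outside clusters, Cxcl12 stood out by 2 TEAD sites already listed in WT livers. Cxcl12 retains blood stem cells and lymphocytes through CXCR4. Its stronger site lay 1560 bp downstream of the start in an intron, with 5.32, 16.74 and 27.1 in the WT, 3 d and 7 d lists. The Cxcl12 promoter peak, 1442 bp upstream of the start at 7 d, was weaker, with 3.17, 5.91 and 7.07. Pileups at the promoter were 28, 36 and 30 fragments, −log10 p-values 7.19, 16.67 and 16.23, and ranks 5663 of 5695, 16344 of 36446 and 21503 of 38984. In WT livers this peak was near the bottom of the list.

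Ccl25, a CCR9 ligand of thymus and gut, had its strongest site at −3971 bp from the start in an intron of Elavl1, whose own start was nearer. This site was absent from the WT list and had 16.09 at 3 d and 36.76 at 7 d, where it ranked 792 of 38984. A second site in the same Elavl1 intron had 3.85, 11.16 and 9.9 in the WT, 3 d and 7 d lists. Cxcl16, a membrane-anchored CXCR6 ligand, had 3 peaks in each induced list. Its promoter peak lay where Cxcl16 and Zmynd15 start on opposite strands and cannot be assigned to either. It had a fold enrichment of 5.01 at 3 d (pileup 33, −log10 p-value 13.4, rank 21525 of 36446) and 7.07 at 7 d (30, 16.23 and 21503 of 38984).

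Cxcl17, a mucosal chemokine, had 5 peaks at 3 d, as many as Ccl9, and 6 at 7 d, more than any other member of the family. None was at its promoter, although a 7 d peak lay 360 bp from that interval, and none was above 11.07. Of its TEAD sites, 4 had the start of Lipe (hormone-sensitive lipase) as the nearest. Cxcl13, a B cell attractant, had 1 peak at 7 d (6.13). Ccl20, Cxcl14 and Xcl1 had no peak in any list, which brought the number without a peak to 18 of 37.

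**Figure D3:**
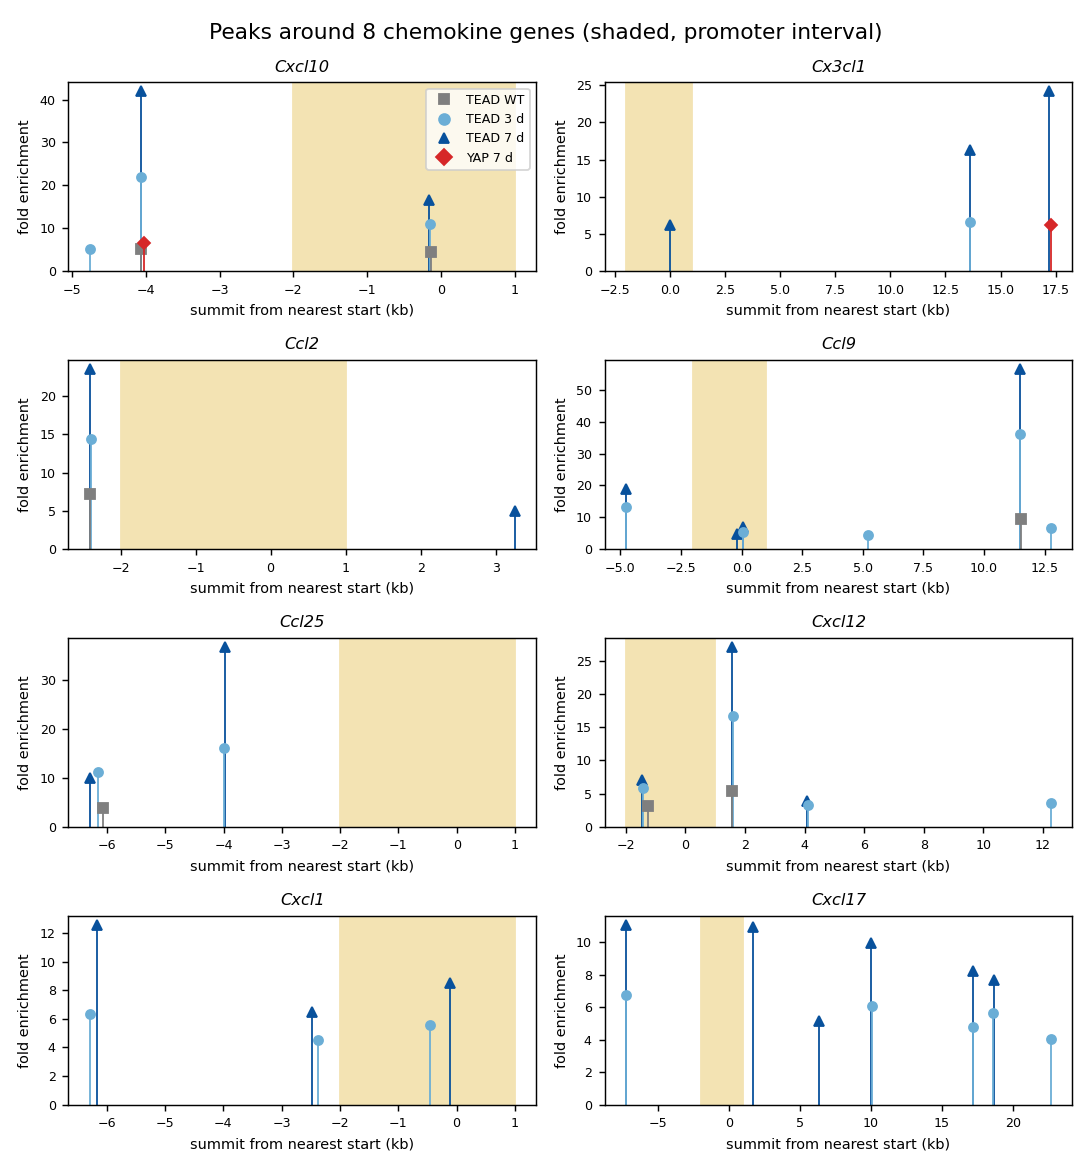
Fold enrichment (vertical axis) of every peak in the windows of 8 chemokine genes against the distance of its summit from the nearest annotated start of the gene (horizontal axis, kb, negative upstream), with the promoter interval shaded. Squares, circles and triangles are the WT, 3 d and 7 d lists of TEAD, and red diamonds are YAP at 7 d. The tallest TEAD peaks of Cxcl10 (41.94), Ccl2 (23.56), Ccl9 (56.55) and Ccl25 (36.76) lie outside the shaded interval.

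Merging overlapping TEAD peaks across the 3 lists gave 44 sites in the windows, of 47146 in the genome. Of these, 7 were in all 3 lists (15.9%, against 11.4% of all sites), 23 in both induced lists but not in WT livers (52.3%, against 46.1%), 6 at 3 d only (13.6%, against 18.2%) and 8 at 7 d only (18.2%, against 23.7%). For 31 of the 44 sites the nearest protein-coding start belonged to a chemokine gene. The 7 sites of WT livers were at Ccl2, Ccl9, Ccl25, Cxcl10 (2 sites) and Cxcl12 (2 sites), and none was lost after induction. No chemokine site was in the WT list alone or in the WT list and 1 induced list (0.125%, 0.42% and 0.0679% of all sites for WT alone, WT with 3 d and WT with 7 d).

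Fold enrichment at these sites was mostly higher in the later list. Of the 30 sites present at both 3 d and 7 d, 26 had a higher value at 7 d, against 84.7% of all such sites, and the median ratio of 7 d to 3 d was 1.46 (range 0.732 to 2.48) against 1.34 over all sites. All 7 sites present in WT livers had a higher value at 3 d than in WT livers, and 6 of them were higher again at 7 d, against 85.0% of all sites in the 3 lists. The exception was the weaker Ccl25 site. The median ratio of 7 d to WT at these sites was 3.74, against 3.15 over all sites in all 3 lists. The values at chemokine sites thus lay near those of all TEAD sites. The ratios compare separately called lists, whose depth and fragment length differ.

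**Figure D4:**
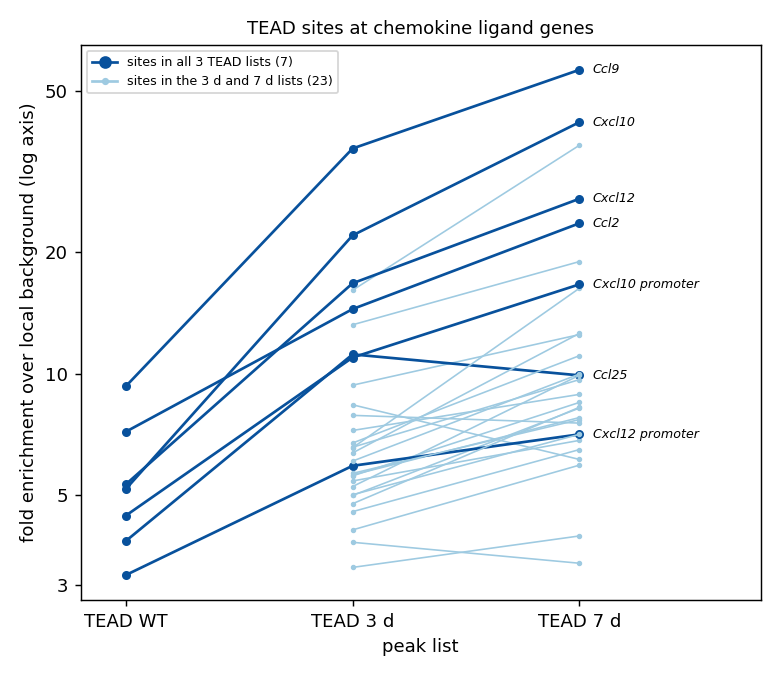
Fold enrichment over the local background (vertical axis, log scale) of TEAD sites at chemokine ligand genes in the lists of WT livers, 3 d and 7 d. Dark lines are the 7 sites found in all 3 lists, named by gene, and light lines are the 23 sites found in both induced lists only. The 7 dark lines all rise from WT to 3 d, and only the Ccl25 line falls from 3 d to 7 d.

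TEAD motifs were counted within 150 bp of the summits. In WT livers 4 of 7 TEAD peaks at chemokine genes held one (53.6% of all TEAD peaks in that list), at 3 d 12 of 37 (34.6%) and at 7 d 11 of 37 (39.0%). Among promoter peaks, none of 2 in WT livers, none of 6 at 3 d and 1 of 8 at 7 d (that of Cxcl16) held the motif, where 47.7%, 27.4% and 31.3% of all TEAD promoter peaks did. Peaks outside any promoter held it in 4 of 5, 12 of 27 and 9 of 25 cases, against 56.3%, 37.6% and 41.9%. Chemokine-window peaks at promoters of other genes are in neither of these counts. The shares of all TEAD promoter peaks, by contrast, cover promoters of any gene. The strong sites of Ccl2, Ccl9, Ccl25 and Cxcl10 each held the motif within 28 bp of the 7 d summit, while the strong Cxcl12 site held none in 150 bp.

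Of the other motifs, AP-1 was present at 9 of the 37 TEAD peaks at 7 d (11.9% of all TEAD peaks) and the NF-kB-like motif at 5 of 37 (1.60% of all). The latter 5 were the Cxcl1 promoter peak, a Ccl9 promoter peak, both Ccl2 peaks and a peak in the Cxcl16 window. The Cxcl16 peak lay 87 bp from the start of Med11, and the weaker Ccl2 peak 305 bp from that of Gm17268. In WT livers the NF-kB-like motif was at 1 of 7 peaks (1.76% of all), and at 3 d at 3 of 37 (1.49% of all). The motif TGTTTAC of forkhead factors was at 2 of 37 at 7 d (7.66% of all) and CAAAGTC, part of the HNF4 motif, at 3 of 37 (8.32% of all). These counts are within 150 bp of the summit. Within 50 bp at 7 d, AP-1 was at 3 of 37 (4.85% of all) and the NF-kB-like motif at 2 of 37 (0.583% of all). The NF-kB-like motif was within 50 bp at 0 of 7 peaks in WT livers (0.475% of all) and 0 of 37 at 3 d (0.541% of all). A match of letters does not show that the factor was bound.

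Overlap with YAP came down to the sites described first, both of which held a TEAD motif within 150 bp of the YAP summit (64.6% of all YAP peaks at 7 d). Of the 37 distinct TEAD peaks at 7 d, 2 overlapped a YAP peak at 7 d, against 3.58% of all TEAD peaks at 7 d. At 3 d, 7 of 37 overlapped a TEAD peak of WT livers (15.5% of all), and at 7 d 7 of 37 (14.1% of all). The induced lists shared most of these peaks: 31 of 37 at 3 d overlapped one at 7 d (75.9% of all) and 29 of 37 the reverse (71.2% of all). In the strongest 10% of the TEAD lists lay 1 of 7, 6 of 37 and 6 of 37 chemokine peaks.

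The receptors and the upstream signalling genes of the chemokine system were counted the same way. Of 23 chemokine receptor genes, which are mostly used by leukocytes, 3 had a TEAD peak in the window in WT livers and 10 at each induced time (20.2%, 58.9% and 59.7% of all genes, as above). The only promoter peak was at Ccrl2 at 3 d, with a fold enrichment of 4.27, where 39.0% of all genes had a promoter peak at 3 d and 37.7% at 7 d. No receptor gene had a YAP peak (4.82% of all genes at 7 d). Ccbp2, an atypical scavenging receptor, had the strongest value of the list, 21.68 at 7 d.

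Of 29 genes of the NF-kB pathway and inflammatory cytokines, 7 had a TEAD peak in the window in WT livers and 25 at each induced time (20.2%, 58.9% and 59.7% of all genes). For this list and the receptor list no interval was computed, and window lengths were not compared with those of all genes. TEAD promoter peaks were at 2, 20 and 19 of these 29 genes (8.76%, 39.0% and 37.7% of all genes). YAP was called at 2 of them at 7 d (6.90%, against 4.82% of all genes), once at a promoter (1.04% of all genes). Tnfaip3, which restrains NF-kB signalling, had a YAP peak at its promoter (chr10:18727711-18728302, fold enrichment 9.82, rank 106 of 1478). Irf1, a transcription factor of the interferon response, had a YAP peak outside its promoter (4.33). The strongest TEAD value in the Tnfaip3 window was 5.05, 16.48 and 57.73 in the WT, 3 d and 7 d lists. That in the window of Csf1, a growth factor of macrophages, was 7.06, 19.12 and 27.69. Sites of these genes were not matched between lists. Tnf, Il1b, Il6 and Csf2 had no peak in any list.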

How the data were processed

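The processed data were 6 peak lists, each called by the authors on the merged replicates of 1 group of the 19 samples. Per the submitters' processing notes, reads were aligned with BWA 0.6.2 to mm9 and handled with SAMtools, and the file headers name MACS 2.0.9 with 1e-05 as the p-value limit, a tag size of 51 bp and a shared control of 167176362 tags. Per the file headers, the fragment length was 250 bp in the YAP lists. The deposited pileup is a signal, the number of fragments over the summit, and the deposited fold enrichment is its ratio to the local background. The deposited −log10 p-value and −log10 q-value are those of the caller. These were not recomputed.

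Here peaks were intersected by at least 1 bp with windows and promoters of GENCODE M1 genes (Python 3.11.15, pandas 2.3.3, pysam 0.24.0). Ends of peaks on named chromosomes lay within their lengths in that assembly, and the 10 to 31 peaks per list on unplaced sequences were not checked. Shares carry 95% Wilson intervals (SciPy 1.17.1) and stand beside the share of all protein-coding genes, or of all peaks of the list. With 1 list per group no test between conditions could be made. The counting was tested on simulated peaks. Ranks are by −log10 p-value within a list. Clusters were chained by gaps of at most 250 kb. Unique sequence was the share of 51-bp words on either strand that occur once in the assembly.

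Peaks described in full were the YAP peaks, the strongest promoter peak of each gene in each TEAD list and Ccl2, with others given by number and range of fold enrichment. Sites named beyond these were chosen after their values were seen. The printed sequences cover 151 bp, more than the 100 bp first planned. The genes and lists were chosen with earlier results of these data known.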

Additional observations from a re-analysis of the deposited data

How the results depend on the processing

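Across 18 counts, 112 of 129 recomputed values stayed within 1.5 times the value reported, and no YAP promoter peak appeared under any setting tried. The 112 include counts of 0 that stayed 0, namely YAP windows in WT livers and at 3 d and YAP promoters in every list. Some settings only removed peaks or genes and could not raise a count of 0. The tally is therefore no measure of stability on its own. With the gene body alone, TEAD was called at 2, 8 and 9 genes in the WT, 3 d and 7 d lists (12.5%, 43.8% and 44.0% of all genes) and YAP at 0 at 7 d (2.94%). For TEAD at 3 d and 7 d the general share then lay above the interval (11.4% to 37.2% and 13.4% to 40.1%), unlike with the flanks. The median gene body was 3122 bp for chemokine genes and 15512.5 bp for all protein-coding genes. The part of body length in these lower shares was not tested. With 50 kb on either side TEAD was called at 14 genes in WT livers (37.9% of all) and 27 at 3 d (75.3%), and YAP at 6 at 7 d (10.8%). The YAP peak near Cx3cl1 then also counted for Ccl17 and Ccl22, and that near Cxcl10 also for Cxcl9. Only the YAP peak near Ccl25 was added. Within 10 kb of a start YAP was called at 1 gene at 7 d (2.88%). With lists of equal length, TEAD was called at 6 genes at 3 d and 7 at 7 d (19.8% and 18.2%), TEAD promoter peaks at 1 and 1 (7.75% and 5.98%), and YAP at 0 at 7 d (0.481%), where shorter lists are part of the construction. The 2 promoter peaks of WT livers became 1 with an interval of 1000 bp on either side of a start (8.2% of all genes), 1 with a −log10 p-value of at least 10 (7.44%) and 0 with at least 5-fold enrichment (4.54%). TEAD motifs within 50 bp of the summit were at 7 of the 3 d peaks (23% of all peaks). Leaving out genes without unique sequence and counting by gene model were chosen after seeing the data. The first could not change any count, because the genes left out had no peak in any list, and changed only the shares. Counting by gene model kept every count within 1.5 times. No paired analysis was possible because each list was called on merged replicates, and for the same reason no replicate could be left out. In every list, a site below the caller's threshold is not shown to be unoccupied.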

Other observations

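Cxcl11, a further interferon-inducible ligand of CXCR3, is annotated as a processed transcript in the annotation used and so was outside the rule. Its window holds the YAP peak at 7 d described for Cxcl10 (fold enrichment 6.55) and 1, 5 and 5 TEAD peaks in the WT, 3 d and 7 d lists. Pf4 and Ppbp, platelet chemokines whose symbols the rule does not match, had no peak in any list. Within 50 kb, another YAP peak at 7 d (fold enrichment 4.39, rank 1141 of 1478) lay 38502 bp from the nearest start of Ccl25.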
